A study of Caenorhabditis elegans with 2 samples.

Results

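Binding of the GATA factor ELT-1 was examined at 6 genes that encode transcription factors of the epidermis, namely elt-3, lin-26, nhr-25, nhr-23, blmp-1 and grh-1. They were taken by name, with earlier results of these data known, and are 6 of 19985 annotated protein-coding genes. A peak was assigned to a gene when its summit lay between 8 kb upstream of the annotated gene start and 8 kb past its end, which gave 12 of the 1400 peaks in the thresholded list described below. The measurements were chromatin immunoprecipitation and sequencing (ChIP-seq) of mixed-stage embryos of Caenorhabditis elegans hermaphrodites, as whole organisms, in 2 biological replicates of 1 group. All embryos were of strain OP354, which carries unc-119(tm4063) III and the integrated transgene wgIs354, and makes ELT-1 with GFP and FLAG at its C-terminus. According to the descriptions the immunoprecipitation used an antibody to GFP, whereas the antibody field reads elt-1. The strain is a single transgenic line and no untagged group was analysed here, and in whole embryos the cells in which a site was bound cannot be told apart. With 1 group and no contrast between samples, no difference was tested. Each value below is a peak's own signal as deposited by the submitters, its rank by signal within its list, or a count. Rank 1 is the highest. Counts were set beside the same count over all genes or peaks, except where stated.

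The irreproducible discovery rate (IDR) is a measure of reproducibility between replicates. The main list holds the 1400 peaks that the submitters deposited as thresholded on it, on genome build ce11. Its signals ran from 27.8 to 823 with a median of 39.4. Longer relaxed lists, which hold background as well as peaks, contained 30000 peaks for the pooled replicates, 30000 for replicate 1 and 26001 for replicate 2. The 1400 IDR peaks were the 1400 strongest of the pooled list, with the same start, end and summit. Of them, 98.2% overlapped a relaxed peak of each replicate. A place in the IDR list therefore does not by itself show that a peak was strong in both replicates. Signals have no stated scale between lists, so ranks were used across them. Read depth is unknown.

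ELT-1 sits at the head of the epidermal pathway of the worm embryo, where it is required for cells to take an epidermal fate. Factors that act after it maintain that fate, shape the epidermis and drive cuticle formation and moulting. GATA factors bind through zinc fingers to the sequence WGATAR (W is A or T, and R is A or G). lin-26 and elt-3 are known as downstream genes that maintain and carry out the epidermal programme, while nhr-25, nhr-23, blmp-1 and grh-1 act in epidermal morphogenesis, moulting and cuticle formation.

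IDR peaks had summits in the windows of 5 of the 6 genes, and grh-1 was the exception. The share over all protein-coding genes was 19.5%, and over the 6718 genes between 2567 and 9955 bp long, the range of the 6 genes, it was 22.2%. With each peak given only to the gene of the nearest 5′ end, 3 of the 6 genes kept a peak (5.63% of all genes), and with only the strongest 50% of IDR peaks 3 had a summit (10.6% of all genes). The counts were 4 summits at nhr-25, 4 at nhr-23, 2 at lin-26, 1 at elt-3, 1 at blmp-1 and 0 at grh-1. At least 4 summits were found in the windows of 0.395% of all protein-coding genes, or 79 genes, 12 of them mitochondrial. With each peak given only to the gene of the nearest 5′ end, nhr-25 kept 4 summits and nhr-23 kept 3. Among the strongest 50% of IDR peaks they had 3 and 2. The share of all genes with that many summits was not computed for these alternatives. Together the windows of the 6 genes covered 132.4 kb and held 9.07 IDR summits per 100 kb, where the nuclear chromosomes held 1.37. In the relaxed lists, the windows held 56.7 summits per 100 kb in the pool, 58.2 in replicate 1 and 47.6 in replicate 2, against 29.9, 29.9 and 25.9 over the nuclear chromosomes. The density at the 6 genes was thus 6.60 times that of the nuclear genome in the IDR list and 1.84 to 1.95 times in the relaxed lists. The 12 peaks were of ordinary strength, with a median signal of 39.2, and 6 of them lay above the median of the IDR list.

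**Figure D1:**
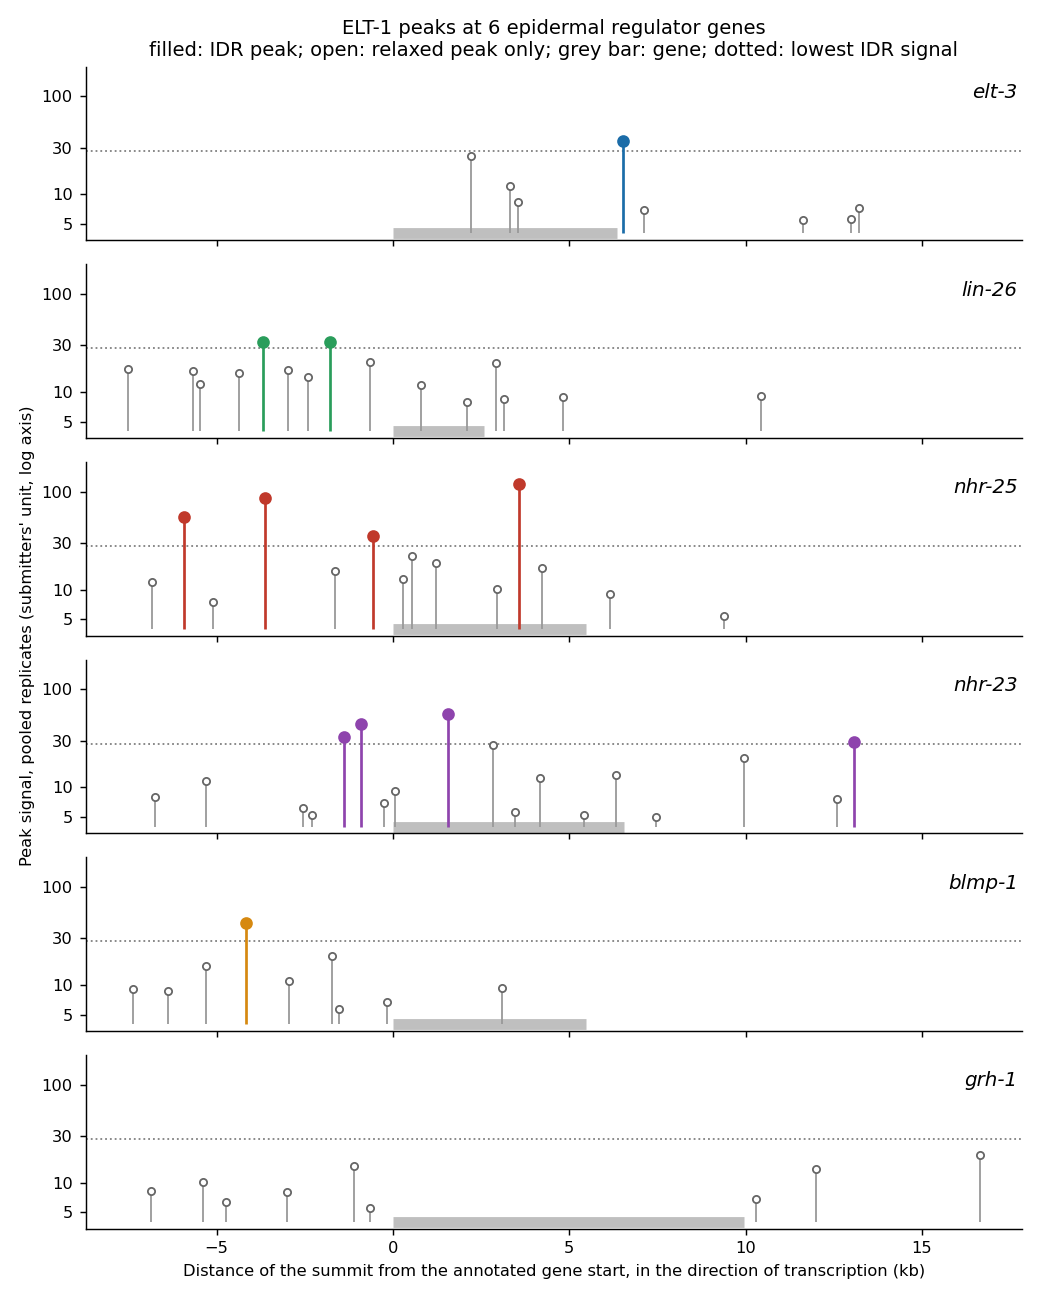
Pooled peak signal (log axis, submitters' unit) against the distance of the summit from the annotated gene start, in kb along the direction of transcription, for each of the 6 genes. Filled points are IDR peaks, open points relaxed peaks only, grey bars the genes, and the dotted line the lowest IDR signal of 27.8; nhr-25 carries the highest peak, at 119.42, and grh-1 has no point above the line.

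**Figure D2:**
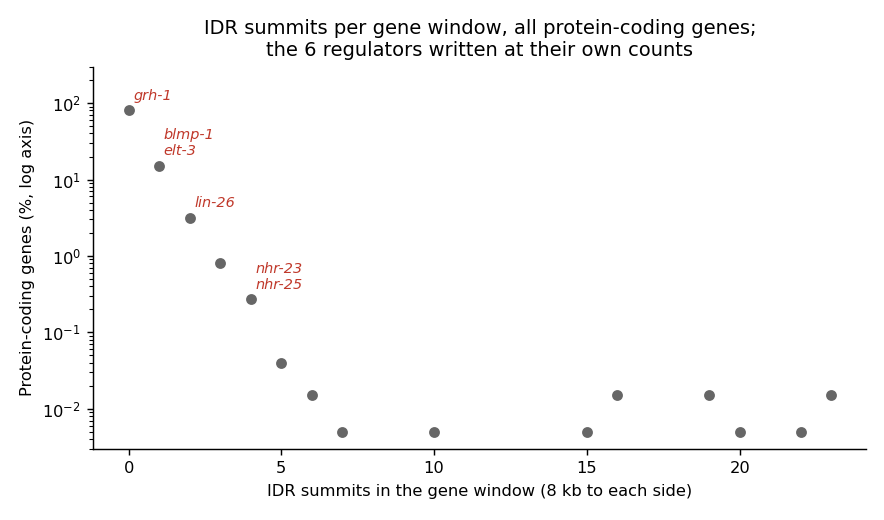
Share of all 19985 protein-coding genes (percent, log axis) by the number of IDR summits in the gene window. The 6 genes are written at their own counts, from 0 for grh-1 to 4 for nhr-23 and nhr-25, and the points from 15 summits upward are mitochondrial genes.

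Only nhr-25 and nhr-23 had an IDR summit in a promoter window, which spanned the 1000 bp before and the 200 bp after each annotated 5′ end. Thus 2 of 6 genes had one, where the share over all protein-coding genes was 3.61%. Genes with more annotated 5′ ends have more such windows. The 6 genes had from 1 (blmp-1) to 6 (elt-3 and nhr-23), against 29796 over all 19985 protein-coding genes. The share was not matched for that number. The other IDR summits lay farther out: upstream at lin-26 and blmp-1, past the 3′ end at elt-3, in an intron as well as far upstream at nhr-25, and 1381 bp upstream and past the 3′ end at nhr-23. For 8 of the 12 peaks the nearest annotated 5′ end of any protein-coding gene belonged to the epidermal regulator itself. The exceptions were both peaks at lin-26, the peak at blmp-1 and the most distal peak at nhr-23. Of the 8, 4 were at nhr-25, 3 at nhr-23 and 1 at elt-3. This count depends on the spacing of neighbouring genes, and no matching share over all IDR peaks was computed.

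elt-3 encodes a GATA factor of the embryonic epidermis that is made in most epidermal cells but not in the lateral seam cells. The gene (chromosome X, 13934874 to 13941216, plus strand) had a single IDR peak, which lay 180 bp past its 3′ end (13941221 to 13941570, summit at 13941396). This intergenic peak had a pooled signal of 35.1 and rank 906. It ranked 492 in replicate 1, with a signal of 31.0, and 1282 in replicate 2, with a signal of 11.1, so it was among the strongest 1400 of each replicate. The nearest other protein-coding gene by 5′ end was alg-1, an Argonaute gene of the microRNA pathway, whose 5′ end lay 7714 bp farther along. Its only WGATAR within 100 bp of the summit was an AGATAA on the minus strand, with its leftmost base 98 bp to the left of the summit.

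A further peak lay in an intron of elt-3, 2203 bp past the annotated gene start (13936902 to 13937251, summit at 13937077), and missed the IDR list. Its pooled signal was 24.8, at rank 1712, below the lowest IDR signal. In the replicates it ranked 1269 (signal 19.8 in replicate 1) and 1212 (signal 11.4 in replicate 2), and in replicate 2 it was the strongest peak of the elt-3 window. Among the 28368 peaks of the pool without overlap to the IDR list, 24 (0.0846%) overlapped the strongest 1400 of both replicates, and this intronic peak was among them. The summit lies within the annotated noncoding RNA genes K02B9.7 and K02B9.8, which overlap each other on opposite strands. It lies 1666 bp upstream of an internal 5′ end of elt-3. Among the strongest 1400 peaks of either replicate alone, elt-3 had 2 summits in its window. None of the promoter windows at its 6 annotated 5′ ends held an IDR summit. Relaxed pooled peaks 3308 bp and 3538 bp past the gene start had summits in such windows. Their signals were only 12.3 and 8.32, at ranks 6184 and 13623, and no relaxed peak of replicate 2 overlapped either.

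The sequences 100 bp to each side of both summits of elt-3 are shown for the place of their GATA sites. They are printed on the plus strand of ce11 from the RefSeq assembly, with WGATAR on either strand in capitals, so that a site on the minus strand appears as its reverse complement.
elt-3, 3′ of the gene, chrX:13941296-13941496: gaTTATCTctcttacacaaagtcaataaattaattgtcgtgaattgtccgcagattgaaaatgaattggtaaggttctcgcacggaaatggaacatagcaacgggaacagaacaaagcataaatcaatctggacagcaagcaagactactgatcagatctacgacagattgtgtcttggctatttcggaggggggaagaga
elt-3, intron, chrX:13936977-13937177: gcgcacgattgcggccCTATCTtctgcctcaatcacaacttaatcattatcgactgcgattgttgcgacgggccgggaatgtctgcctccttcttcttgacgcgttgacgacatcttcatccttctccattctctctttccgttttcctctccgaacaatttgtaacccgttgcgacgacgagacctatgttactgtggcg
The IDR peak has its single site at the edge of the sequence, and the intronic peak has a single AGATAG on the minus strand, 84 bp to the left of its summit, with a CGATAA 54 bp to the left.

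lin-26 encodes a zinc finger protein needed to keep cells epidermal. The gene (chromosome II, 7682198 to 7684764, plus strand) lies directly downstream of, and overlaps, lir-1, a gene of related sequence. Both of its IDR peaks lay in introns of lir-1. The peak 3696 bp upstream of the lin-26 start (7678327 to 7678676) had a signal of 32.5 and rank 1041, and the peak 1778 bp upstream (7680245 to 7680594) had a signal of 32.4 and rank 1048. The nearest annotated 5′ ends belonged to transcripts of lir-1, at 2543 bp and 625 bp downstream of the summits.

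The replicates gave the lin-26 peaks different ranks. The distal peak had a signal of 10.2 in replicate 1, at rank 4444, and 7.47 in replicate 2, at rank 2998. It was the only 1 of the 12 peaks outside the strongest 1400 of both replicates, which held for 69 of all 1400 IDR peaks. The proximal peak had a signal of 33.2 in replicate 1, at rank 418, and 6.45 in replicate 2, at rank 4138. Among the strongest 1400 peaks of replicate 2 alone, lin-26 had no summit in its window, and among those of replicate 1 it had 1. The strongest peak of replicate 2 in this window ranked 2996 and lay 2965 bp upstream of the gene start, with a signal of 7.48. The pooled list held 15 summits in the window. The relaxed summit nearest to the annotated start lay 661 bp upstream, in a coding exon of lir-1, with a signal of 20.1 at rank 2397 and with an AGATAA within 100 bp.

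Neither IDR summit of lin-26 had WGATAR within 100 bp, and the stretches around them are shown for that reason, on the plus strand. The distal stretch holds CGATAA, a related form that begins with C, 34 bp to the left of the summit, and the proximal stretch holds neither form. There are therefore no capitals in these lines.
lin-26, distal, chrII:7678402-7678602: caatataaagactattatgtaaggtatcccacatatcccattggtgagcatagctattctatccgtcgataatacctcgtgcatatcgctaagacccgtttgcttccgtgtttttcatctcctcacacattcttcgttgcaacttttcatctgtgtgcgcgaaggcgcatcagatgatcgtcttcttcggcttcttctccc
lin-26, proximal, chrII:7680320-7680520: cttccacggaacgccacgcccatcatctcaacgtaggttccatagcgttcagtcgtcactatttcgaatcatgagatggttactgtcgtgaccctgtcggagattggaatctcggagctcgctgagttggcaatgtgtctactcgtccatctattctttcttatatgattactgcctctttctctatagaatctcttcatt
Both windows lie wholly in introns, with a GC content of 44.3% in the distal and 45.8% in the proximal stretch.

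nhr-25 encodes a nuclear hormone receptor, the worm counterpart of Drosophila Ftz-F1, that acts in epidermal shape, seam cell contacts and moulting. The gene (chromosome X, 13008493 to 13013964, plus strand) carried the highest peak signals of the 6 genes. Its highest peak lay in an intron, 3583 bp past the gene start (13012007 to 13012182, summit at 13012076), with a signal of 119.42 and rank 52. Counting nhr-25 itself, 117 protein-coding genes (0.585%) had an IDR peak at least as high in their window. The replicates placed it close together, at rank 90 with a signal of 64.6 in replicate 1 and at rank 38 with a signal of 49.0 in replicate 2. The second peak lay 3631 bp upstream (13004687 to 13005036), with a signal of 85.5 and rank 125. It ranked 143 in replicate 1 (signal 53.1) and 103 in replicate 2 (signal 35.2). These are the only peaks of the 12 with a rank under 200 in both replicates.

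The remaining pair at nhr-25 ranked lower in replicate 2. The most distal peak, 5935 bp upstream (13002383 to 13002732), had a pooled signal of 55.5 and rank 336. It ranked 175 in replicate 1, with a signal of 49.2, but 10181 in replicate 2, where the overlapping relaxed peak had a signal of 4.18 and a summit 122 bp away. The peak in the promoter window, 571 bp upstream of the gene start (13007747 to 13008096), had a pooled signal of 35.3 and rank 902. It ranked 679 in replicate 1 (signal 26.8) and 2131 in replicate 2 (signal 8.71). Among the strongest 1400 peaks nhr-25 had 5 summits in replicate 1 alone and 2 in replicate 2 alone. The additional summit of replicate 1 lay 542 bp past the gene start, with a signal of 19.9 at rank 1256. The nearest other 5′ ends, of vwa-8 and npr-10, lay 9966 to 14120 bp from these summits.

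The 4 IDR summits of nhr-25 are shown because they hold most of the GATA sites of the group. Letters of WGATAR on either strand are in capitals, and the stretches run 100 bp to each side of the summit on the plus strand.
nhr-25, distal upstream, chrX:13002458-13002658: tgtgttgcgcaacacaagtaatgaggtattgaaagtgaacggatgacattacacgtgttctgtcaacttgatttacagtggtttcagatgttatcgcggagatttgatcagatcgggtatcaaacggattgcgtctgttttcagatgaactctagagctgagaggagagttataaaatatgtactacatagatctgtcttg
nhr-25, middle upstream, chrX:13004762-13004962: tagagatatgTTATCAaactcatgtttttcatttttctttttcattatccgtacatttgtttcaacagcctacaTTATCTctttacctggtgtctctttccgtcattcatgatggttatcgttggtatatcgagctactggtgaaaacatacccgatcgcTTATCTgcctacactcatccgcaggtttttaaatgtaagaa
nhr-25, promoter, chrX:13007822-13008022: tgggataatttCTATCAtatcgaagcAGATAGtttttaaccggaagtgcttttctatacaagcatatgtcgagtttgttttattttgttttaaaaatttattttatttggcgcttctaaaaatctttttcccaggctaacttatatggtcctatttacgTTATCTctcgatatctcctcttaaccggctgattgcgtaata
nhr-25, intron, chrX:13011976-13012176: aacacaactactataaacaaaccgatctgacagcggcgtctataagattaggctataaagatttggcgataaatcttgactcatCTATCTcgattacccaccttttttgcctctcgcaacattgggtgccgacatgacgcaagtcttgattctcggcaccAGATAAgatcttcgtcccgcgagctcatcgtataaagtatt
The middle upstream stretch holds 3 WGATAR matches, AGATAA at 26 bp to the left and 60 bp to the right of the summit and TGATAA farther left. The promoter stretch also holds 3, in 3 different forms, all more than 50 bp from the summit. At least 3 matches were found at 2 of the 12 member summits, and at 11.8% of all IDR summits. The intronic stretch holds AGATAG on the minus strand, 16 bp to the left of the summit, and AGATAA 60 bp to the right of it. The distal upstream stretch, whose peak ranked far lower in replicate 2, has no WGATAR, but a CGATAA on the minus strand, 10 bp to the left of the summit.

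nhr-23 encodes a nuclear hormone receptor related to Drosophila DHR3 that is required for moulting and for the expression of cuticle genes. The gene (chromosome I, 7214745 to 7221299, plus strand) had 4 IDR summits, of which 3 were within 2 kb of its annotated start. The highest lay in an intron 1554 bp past the gene start (7216124 to 7216473) and 485 bp upstream of an internal 5′ end of the gene, with a signal of 55.5 and rank 335. It ranked 235 in replicate 1 (signal 42.6) and 673 in replicate 2 (signal 15.3). The peak 897 bp upstream (7213673 to 7214022) had a signal of 44.5 and rank 546, and ranked 732 in replicate 1 (signal 25.7) and 323 in replicate 2 (signal 21.1). Both counted as promoter summits. The peak 1381 bp upstream (7213189 to 7213538) had a signal of 32.9, with ranks of 2337 in replicate 1 and 1219 in replicate 2. The nearest other 5′ end to these summits was that of C01H6.4, which lay 2849 to 5784 bp away.

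The last IDR peak in the nhr-23 window had a signal of 28.9 at rank 1318 and lay 6529 bp past the 3′ end of the gene (7227653 to 7228002). Its summit fell in the 5′ UTR of C01H6.8, 39 bp past the 5′ end of that gene, which is nearer to it than any 5′ end of nhr-23. It ranked 4633 in replicate 1 and 813 in replicate 2. A further intronic peak of nhr-23, 2847 bp past the gene start, had a pooled signal of 27.0 at rank 1483, just under the lowest IDR signal of 27.8. It ranked 390 in replicate 2 (signal 19.2) and 1755 in replicate 1 (signal 16.6), and its deposited −log10 q-value of 3.53 was the same as that of all IDR peaks. With replicate 2 alone nhr-23 had 5 summits among the strongest 1400, and with replicate 1 alone it had 2. Of the 4 IDR summits only the peak 897 bp upstream had WGATAR within 100 bp, an AGATAA 22 bp to the right of the summit. The highest peak had a CGATAA 97 bp to the left, and the other summits had neither form.

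blmp-1 encodes a zinc finger protein with a PR domain, the counterpart of mammalian Blimp-1, and acts in epidermal development and its timing. The gene (chromosome I, 10409302 to 10414773, plus strand) had 1 IDR peak, 4175 bp upstream (10404952 to 10405301), with a signal of 43.1 and rank 587. It ranked 846 in replicate 1 (signal 24.3) and 429 in replicate 2 (signal 18.5). The summit was intergenic and almost midway between the 5′ ends of blmp-1 and tag-353, which lay 4063 bp away on the same strand. It had a single TGATAG, 92 bp to the right of the summit. In replicate 2 alone a further peak 5433 bp upstream ranked 1361, with a signal of 10.8, while no relaxed peak of replicate 1 overlapped its pooled counterpart. The strongest pooled summit nearer to the gene lay 1722 bp upstream, with a signal of 19.8 at rank 2492.

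grh-1 encodes the worm counterpart of Drosophila Grainyhead, a factor of epidermal barrier and cuticle genes. The gene (chromosome I, 1258201 to 1268155, minus strand) is the longest of the 6, and no IDR summit lay in its window of 25.96 kb. The 9 pooled relaxed peaks there had signals from 5.50 to 19.4, and the highest of them, at rank 2572, lay in an intron of the neighbouring gene herc-1, 6692 bp past the 3′ end of grh-1. Nearer the gene start, a relaxed peak 1112 bp upstream had a pooled signal of 14.7 at rank 4243. It ranked 1967 in replicate 1 (signal 15.4), and no relaxed peak of replicate 2 overlapped it. No peak of the grh-1 window was among the strongest 1400 of either replicate, where the best ranks were 1967 in replicate 1 and 3880 in replicate 2. The nearest IDR summit lay 27613 bp from the gene, with a signal of 39.0.

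The 12 peaks were then compared between replicates as a group. Each overlapped a relaxed peak of both replicates (12 of 12), as did 98.2% of all IDR peaks. Of the 12, 9 were among the strongest 1400 of replicate 1, 8 among those of replicate 2 and 6 among both, where 55.4% of all IDR peaks were among both. The 6 were the middle upstream and intronic peaks of nhr-25, the peaks at 897 bp upstream and 1554 bp downstream of the nhr-23 start, and the IDR peaks of elt-3 and blmp-1. Of the others, lin-26 proximal and the nhr-25 distal and promoter peaks ranked higher in replicate 1, and the outer peaks of nhr-23 ranked higher in replicate 2. At 6 of 12, the share is near that of the whole list.

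**Figure D3:**
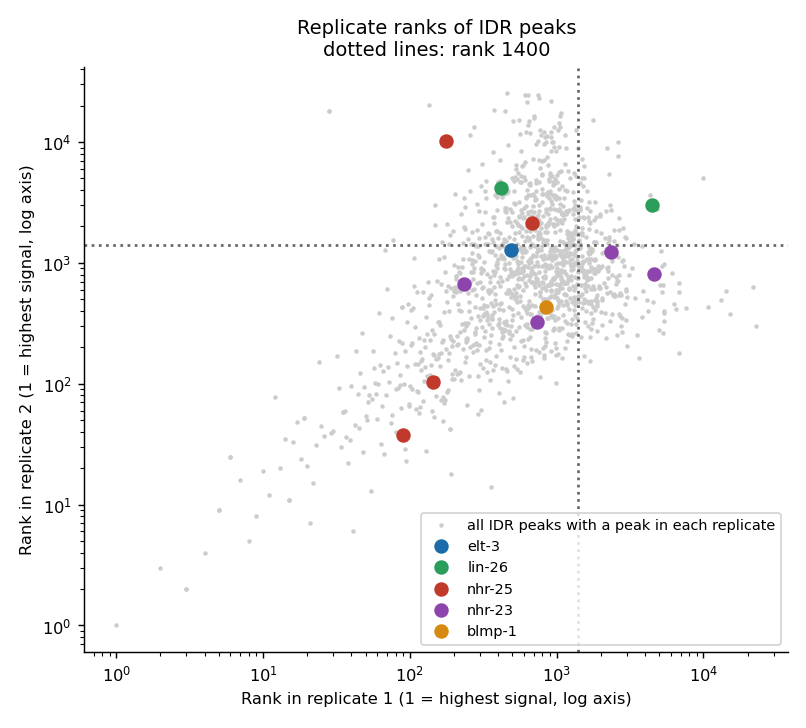
Rank by signal in replicate 1 against rank in replicate 2 (both log axes, 1 is the highest) for the 12 IDR peaks of the epidermal regulators, coloured by gene, and for all 1375 IDR peaks with a relaxed peak in each replicate, in grey. Dotted lines mark rank 1400, and 6 of the 12 coloured points lie inside both, with the nhr-25 distal peak at 175 and 10181 far from the diagonal.

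GATA sites were then counted. WGATAR on either strand lay within 100 bp of 6 of the 12 summits, against 65.2% of all IDR summits. Within 50 bp it was found at 3 of 12, against 50.1%: in the middle upstream and intronic peaks of nhr-25 and 897 bp upstream of nhr-23. HGATAR (H is A, C or T), which adds forms that begin with C, lay within 100 bp of 9 of 12 summits and of 76.3% of all. CGATAA alone was found at 5 of 12 summits, 3 of them at nhr-25, and at 18% of all IDR summits, a form singled out after its values were seen. For relaxed pooled peaks in these windows that overlapped no IDR peak, 23 of 61 (37.7%) had WGATAR within 100 bp. Over all pooled relaxed peaks, which take in the 1400 IDR peaks, the share was 40.4%. A match is a run of letters and does not show that the site was bound, and overlapping matches were each counted.

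**Figure D4:**
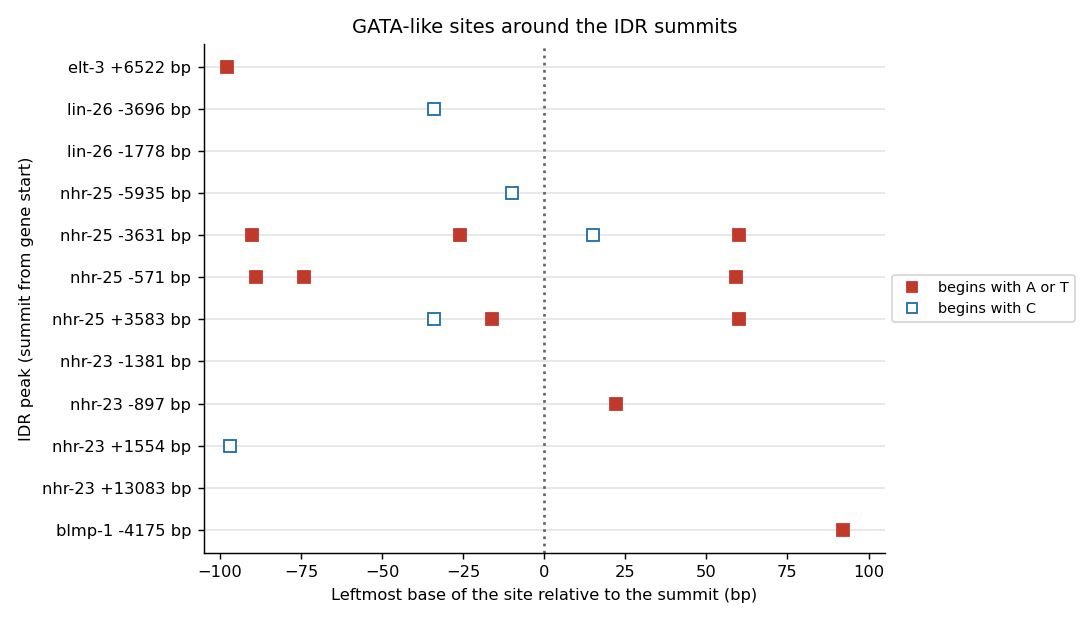
Position of GATA-like sites within 100 bp of each of the 12 IDR summits, in bp from the summit to the leftmost base of the site on the plus strand. Filled squares are WGATAR (sites that begin with A or T) and open squares forms that begin with C; most filled squares lie at the nhr-25 peaks 3631 bp upstream, 571 bp upstream and 3583 bp past the gene start, and 3 rows have no square.

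Other genes listed as regulators of the epidermis were counted in the same way. Both this list and that of other tissues below were chosen with earlier results of these data known. Of 20 such genes, 12 (60%) had an IDR summit in the same window, beside 19.5% over all genes. Without elt-1, the tagged gene of the transgene, 11 of 19 (57.9%) did; elt-1 itself had 10 summits and the highest signal of the list, 823. They took in egl-18, which encodes a seam cell GATA factor (4 summits, highest signal 227), and its neighbour elt-6, which shares that peak. Also among them were the homeobox genes ceh-43 (94.9), lin-39 (81.3) and ceh-16 (36.1), the Pax6 gene vab-3 (86.4), the seam cell division genes bro-1 (71.4) and rnt-1 (62.1), the Hes-related gene lin-22 (66.1) and the T-box genes tbx-8 and tbx-9, which share a peak of 65.4. The highest peaks in the windows of vab-3 and lin-22 lay nearest to the 5′ end of another gene. No IDR summit was found for pal-1, vab-7, lin-29, mab-5, nob-1, php-3, mab-10 and nhr-67. Apart from elt-1, none of the 20 had an IDR summit in a promoter window, where the share over all protein-coding genes was 3.61%.

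Lineage regulators of other tissues were counted too, since whole embryos hold those tissues. Of 22 such genes, 8 (36.4%) had an IDR summit in the window, beside 19.5% over all protein-coding genes. None had one in a promoter window, where the share over all protein-coding genes was 3.61%. The tissue given here is the one each gene was listed under, and genes active in other tissues as well were not set apart. By tissue these were 2 of 3 genes of body wall muscle (unc-120, 34.2, and hnd-1, 33.95), 0 of 5 intestinal genes, 1 of 5 pharyngeal genes (tbx-2, 49.7), 4 of 6 of neurons (hlh-2, 76.2; lin-32, 58.8; cnd-1, 46.2; hlh-14, 44.8) and 1 of 3 of the mesendoderm (skn-1, 33.1). For unc-120, hnd-1, tbx-2 and lin-32 the highest peak lay nearest to the 5′ end of another gene. The genes differ in length between lists, with a median of 5908 bp for the 6 regulators, 5165 bp for the other epidermal genes, 2264 bp for those of other tissues and 2026 bp for all protein-coding genes, and longer genes have wider windows. Among all genes in the length range of the 6 regulators the share with an IDR summit was 22.2%, as given above.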

How the data were processed

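ELT-1 ChIP-seq peak lists from 2 biological replicates were used as deposited, in narrowPeak format. Per the labels, chromatin was sonicated. The text lists that accompany the deposited files say that a relaxed list was derived from each replicate's alignments with a control set, another from both replicates, and the IDR list from these 3. The deposited peak signal (column 7) and the deposited −log10 q-value (column 9) are the authors' own values. Aligner, peak caller and IDR threshold: not given in the sources used here. No read depth accompanies the lists, so it is unknown and no interval was set on any value.

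Peaks on ce11 were set against the WBcel235 sequence (RefSeq) and Ensembl release 115, and no peak ran past its chromosome's end. Coordinates are 1-based. Lists on ce10 were not used here. Promoter windows were set at 29796 annotated 5′ ends. Peaks counted as shared at an overlap of 1 bp. Motifs were sought on both strands within 100 bp of summits. To leave out a replicate, the strongest 1400 relaxed peaks of the other replaced the IDR list. The genes, gene lists and measures were chosen with earlier results of these data known. Named were the 6 genes with all their IDR peaks and up to 3 strongest relaxed peaks each, and the listed genes with an IDR summit. All 48 listed gene names matched the annotation. Counting procedures were tested on simulated data. Alternatives covered peak lists, window sizes, gene assignment, overlap rules and motifs. Analyses used Python 3.11.15, numpy 2.4.6, pandas 2.3.3 and matplotlib 3.10.9.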

Additional observations from a re-analysis of the deposited data

How the results depend on the processing

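No paired analysis was possible because the series holds 1 group, so no groups share replicate numbers. Leaving out a replicate gave 4 to 5 of the 6 genes with a summit in the window, 11 summits in all. It gave 1 to 2 genes with a promoter summit (1 with replicate 2 alone, which loses nhr-25). For regulators of other tissues it gave 5 to 8 genes, with 5 for replicate 2 alone. The shares over all protein-coding genes were then 19.5% to 19.7% for the window and 3.51% to 3.59% for the promoter window. With the strongest 50% of IDR peaks, 3 genes and 6 summits were left, 1 gene had a promoter summit (1.75% of all protein-coding genes), and 5 regulators of other tissues had a summit, where 10.6% of all protein-coding genes had one in the window. Giving each peak to the nearest 5′ end alone left 3 genes (elt-3, nhr-25 and nhr-23), against 5.63% of all genes. A window of 4 kb left 4 of the 6 genes and 5 regulators of other tissues, against 12.4% of all genes, and a window of 2 kb left 4 genes with 7 summits and 5 regulators of other tissues, against 8.37%. A promoter window of 500 bp upstream to 100 bp downstream left 1 gene, against 2.54% of all genes. With 2000 bp upstream to 200 bp downstream there were 3 genes, against 5.11%. Counting only the strongest peaks of each replicate as matches left 6 of the 12 peaks, and 50 bp around the summit left 3 with WGATAR. Within 200 bp of the summit 8 of 12 had WGATAR, against 79.6% of all IDR summits. The wider promoter and summit windows by construction use more sequence. Apart from these and leaving out a replicate, the alternatives given above by construction use fewer peaks or less sequence. Assignment to the nearest 5′ end can likewise only keep or drop peaks of the main window. The 1400 strongest pooled peaks are the same 1400 peaks as the IDR list, so taking them was no separate check. The other epidermal regulators stayed between 8 and 12 genes in all alternatives, where the share over all genes ran from 5.63% to 19.7%.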

Other observations

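Some values at these loci belong in no comparison above. The sequence CGTCTC lay within 100 bp of 1 of the 12 IDR summits of the epidermal regulators and of 19.2% of all IDR summits, and GAGAGA lay at 4 of 12 and at 34.4%. In the nhr-23 window, a relaxed peak with a pooled signal of 19.7 at rank 2497 had its summit in the 5′ UTR of swsn-9, 44 bp past the 5′ end of that gene. In the lin-26 window, a relaxed peak with a pooled signal of 19.6 at rank 2534 lay 233 bp past a 5′ end of F18A1.1. Outside the windows, the next IDR summit lay 12895 bp from nhr-23, 24003 bp from lin-26, 33681 bp from elt-3, 72591 bp from nhr-25 and 97939 bp from blmp-1.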
